A study of Homo sapiens with 6 samples.

Results

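The 10 desmosome genes DSP, DSC2, DSC3, DSG2, DSG3, JUP, PKP1, PKP2, PKP3 and PERP were read by symbol from a table of 26524 genes, and each matched 1 row. Desmosomes are the junctions that rivet epithelial cells to each other and anchor their keratin filaments. The desmogleins (DSG) and desmocollins (DSC) are cadherins that meet those of the neighbouring cell in the gap between cells. Inside the cell their tails bind plakoglobin (JUP) and the plakophilins (PKP), armadillo proteins that recruit desmoplakin (DSP), and desmoplakin holds the keratins. PERP is a membrane protein of the desmosome and a target gene of p63 in mouse stratified epithelium. In mouse epidermis desmoplakin brings LIS1, NDEL1, CLIP1 (CLIP-170) and ninein to the cell cortex, and loss of Lis1 weakens desmosomes there.

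The table of all genes holds RNA sequencing counts of SCC25, an established squamous carcinoma line of the human tongue, in 3 libraries with a short hairpin against LIS1 (shLIS1) and 3 control libraries. LIS1 is the protein of PAFAH1B1 and a regulator of the dynein motor. The labels give no hairpin for the control cells, do not say whether the hairpin libraries 1 to 3 share a hairpin, and put all 6 libraries in batch 1. Nothing says that the 3 libraries of a group came from separate cultures, so p-values measure the spread between these libraries, which may be technical. The hairpin left PAFAH1B1 at 69.8% of its control level, at 111 ± 2.17 CPM in shLIS1 and 159 ± 5.56 CPM in control libraries (SD, n = 3 each; CPM is the count scaled per 1000000 reads of TMM library size; log2 fold change -0.52, adjusted p = 6.5e-08 by edgeR).

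Total counts were 17674881 to 22790599 in the shLIS1 libraries and 15661916 to 20549728 in the control libraries, and control library 1 stood apart from the other control libraries on the second principal component. The epithelial markers KRT5, KRT14, TP63, CDH1, EPCAM and SFN each had over 200 CPM in both groups, and their sum was 7893 to 8359 CPM in shLIS1 and 9735 to 9852 CPM in control libraries. Of these 6, CDH1 was higher and KRT5, KRT14, TP63 and EPCAM were lower, against 23.5% higher and 24.9% lower of all genes tested. EPCAM had a log2 fold change of -0.31 (adjusted p = 6.1e-05 by edgeR) and -0.29 with the length and GC offset described further on. Markers of other cell types were scarce. The summed level of 7 fibroblast genes was 13.3 to 15.9 CPM in shLIS1 and 17.1 to 21.9 CPM in control libraries, mostly COL1A1. DCN had 0 counts in all shLIS1 libraries and 1, 0 and 0 counts in control libraries. Of 4 fibroblast genes tested, 3 were lower in shLIS1, against 24.9% of all genes tested. COL1A1 was at 8.98 ± 0.701 CPM in shLIS1 and 12.8 ± 1.87 CPM in control libraries, and COL1A2 at a log2 fold change of -0.97. PDGFRB was at -1.02, a call that held only without control library 2 among the fits with 1 library left out (edgeR adjusted p from 0.064 to 0.12 in the others). LUM did not pass, at 3.66 ± 0.776 CPM in shLIS1 and 2.96 ± 0.329 CPM in control libraries. The 3 leukocyte genes with a row summed to 7.75 to 8.87 CPM in shLIS1 and 13.8 to 14.9 CPM in control libraries, nearly all of it CD14 (log2 fold change -0.77). LYZ had 0 counts in all shLIS1 libraries and 1, 1 and 0 counts in control libraries. The 3 endothelial genes with a row summed to 7.15 to 8.54 CPM in shLIS1 and 12.8 to 17.1 CPM in control libraries, mostly CDH5 (-0.93). The 4 melanocyte genes with a row summed to 3.79 to 4.46 CPM in shLIS1 and 3.39 to 4.75 CPM in control libraries, and the 2 cardiomyocyte genes with a row to 1.30 to 2.14 CPM in shLIS1 and 0.696 to 1.48 CPM in control libraries. In bulk RNA, a change in the number of cells that carry a transcript and a change in its amount per cell cannot be told apart.

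The promoters of DSP and DSG3 are shown because these genes rose under every processing tried, and that of PERP because it was called, as lower, only when transcript length and GC content were taken into account. The sequences are from RefSeq (build GRCh38.p14), run 5′ to 3′ on the gene's strand, from 250 bases before the start to 50 bases after it, and were found for 8 of the 10 genes. Capitals mark the E-box CACCTG (bound by SNAI and ZEB repressors), the AP-1 motif TGAGTCA, the GRHL motif AACCGGTT or the letters TATAAA, searched on both strands.
DSP, chr6:7541421-7541720, plus strand: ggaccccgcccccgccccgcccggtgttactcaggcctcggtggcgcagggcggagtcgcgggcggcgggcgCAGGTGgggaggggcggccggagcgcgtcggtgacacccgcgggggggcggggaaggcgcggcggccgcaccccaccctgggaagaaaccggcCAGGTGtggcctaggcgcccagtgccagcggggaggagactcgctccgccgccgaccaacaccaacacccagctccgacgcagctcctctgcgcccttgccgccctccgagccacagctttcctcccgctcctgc
DSG3, chr18:31447491-31447790, plus strand: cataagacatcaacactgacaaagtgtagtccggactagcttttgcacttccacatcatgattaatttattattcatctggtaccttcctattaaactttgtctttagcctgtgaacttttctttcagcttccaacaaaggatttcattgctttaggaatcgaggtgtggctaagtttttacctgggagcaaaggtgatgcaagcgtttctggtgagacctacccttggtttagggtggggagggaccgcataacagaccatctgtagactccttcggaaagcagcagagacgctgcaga
PERP, chr6:138107370-138107669, minus strand: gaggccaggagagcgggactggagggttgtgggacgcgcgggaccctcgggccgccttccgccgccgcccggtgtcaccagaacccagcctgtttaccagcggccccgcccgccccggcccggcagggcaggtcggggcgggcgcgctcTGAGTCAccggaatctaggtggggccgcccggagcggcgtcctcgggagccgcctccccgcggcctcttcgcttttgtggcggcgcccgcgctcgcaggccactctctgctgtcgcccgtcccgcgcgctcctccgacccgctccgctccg
The DSP promoter held 2 copies of the E-box and the PERP promoter 1 AP-1 motif, and the DSG3 promoter held none of the 4 motifs. An E-box stood in 4 of the 10 promoters listed for the 8 genes (DSC2, DSG2, DSP and JUP), against 20.6% of all 35116 promoters of the same length. The AP-1 motif stood in 4.95% of all promoters, TATAAA in 11.5% and the GRHL motif in 0.134%, and the last 2 stood in none of those of the 8 genes. The DSG3 promoter had a GC content of 44.0%, below the lower quartile of all promoters (47.0%), while those of DSP and PERP had 77.0% each, above the upper quartile (68.0%).

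The 4 cadherins and desmoplakin were higher in shLIS1, while plakoglobin and plakophilin 3 were lower, and most of these calls were lost once transcript length and GC content were taken into account. Among the 10, all of which passed the filter on low counts, 5 were higher in shLIS1 (edgeR adjusted p below 0.05), against 23.5% of all 14964 genes tested. A further 2 were lower, against 24.9% of all genes. In either direction 7 were called, against 48.4% of all genes, and PKP1, PKP2 and PERP did not pass. The groups did not overlap for 7 of the 10, against 56.1% of all genes tested. The median log2 fold change was 0.16 over the 10 and -0.01 over all genes tested.

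**Figure D1:**
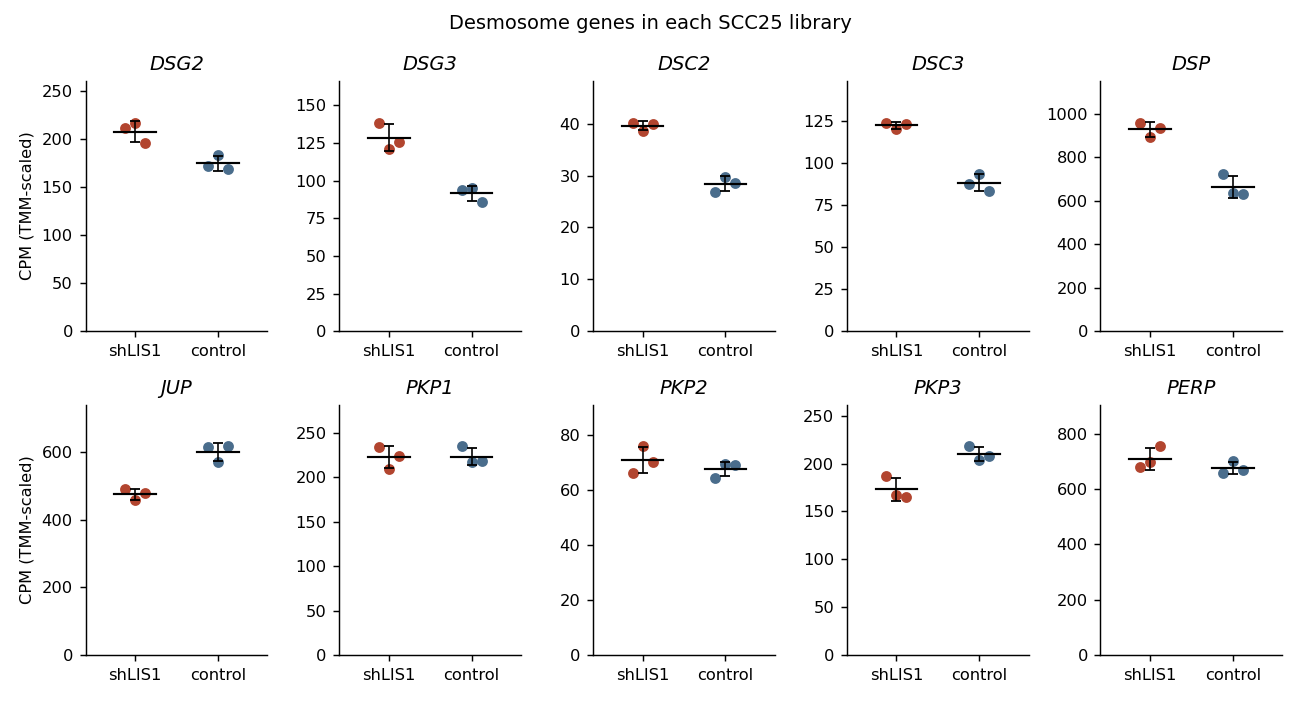
Level of each desmosome gene in CPM on TMM library sizes (vertical axes from 0) in 3 shLIS1 and 3 control libraries; points are libraries and bars the mean ± SD. The shLIS1 points lie above the control points for DSG2, DSG3, DSC2, DSC3 and DSP, below them for JUP and PKP3, and among them for PKP1, PKP2 and PERP.

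DSP (ENSG00000096696, chromosome 6, 7541617 to 7586714, plus strand, hg38), the plakin that ties the junction to keratin, had 960, 892 and 936 CPM in shLIS1 libraries 1 to 3, against 722, 635 and 634 CPM in control libraries 1 to 3. Every shLIS1 library was above every control library, and control library 1 was the highest of the controls. The mean was 929 ± 34.3 CPM in shLIS1 and 664 ± 50.3 CPM in control libraries (SD, n = 3 each), a difference of 0.49 in log2 (SE 0.05, adjusted p = 3.8e-07 by edgeR). Its antisense neighbour DSP-AS1 had 31 to 54 counts in shLIS1 and 38 to 45 in control libraries, against 15777 to 21596 in shLIS1 and 11251 to 12908 in control libraries for DSP.

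The desmosomal cadherins lie in a cluster on chromosome 18, in the order DSC3, DSC2, DSC1, DSG1, DSG4, DSG3 and DSG2. DSG3 (ENSG00000134757, 31447741 to 31478702, plus strand), the desmoglein of the lower layers of stratified epithelium and the autoantigen of pemphigus vulgaris, had 139, 121 and 126 CPM in shLIS1 libraries, against 93.5, 95.0 and 86.0 CPM in control libraries. The groups were well apart, with shLIS1 library 1 the highest. Its log2 fold change was 0.49 (SE 0.06, adjusted p = 1e-06 by edgeR).

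DSG2 (ENSG00000046604, 31498177 to 31549008, plus strand), the desmoglein of simple epithelia and heart that many carcinomas also carry, had 211, 217 and 195 CPM in shLIS1 libraries, against 172, 183 and 169 CPM in control libraries. The groups did not overlap, and the gap between the lowest shLIS1 and the highest control library was small. Its log2 fold change of 0.25 (SE 0.06, adjusted p = 0.00093 by edgeR) was the smallest among the 5 genes that rose.

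The desmocollins kept pace with each other. DSC3 (ENSG00000134762, 30989365 to 31042815, minus strand), the desmocollin of basal stratified epithelium, had 124, 120 and 124 CPM in shLIS1 libraries, against 88.0, 93.7 and 83.7 CPM in control libraries. DSC2 (ENSG00000134755, 31058840 to 31102522, minus strand), the most widespread desmocollin, had 40.2, 38.7 and 40.0 CPM in shLIS1 libraries, against 26.9, 29.8 and 28.6 CPM in control libraries. Both were higher in every shLIS1 library than in any control library. The log2 fold changes were 0.47 for DSC3 (SE 0.05, adjusted p = 5.3e-07 by edgeR) and 0.48 for DSC2 (SE 0.07, adjusted p = 1.6e-05). Antisense genes that overlap DSC2 and DSG2 had at most 9 counts in any library.

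DSC1, DSG1 and DSG4, the cadherins of the upper layers of epidermis and of hair, were close to undetected. DSG1 had 1, 2 and 6 counts in shLIS1 libraries and 0 in every control library. A count of 0 allows up to 3 counts, 0.147 to 0.192 CPM in the control libraries, a limit for counting error only, so no fold is given. DSC1 had 0, 0 and 1 counts in shLIS1 and 0, 0 and 2 in control libraries, and DSG4 had 0, 2 and 0 in shLIS1 and 2, 0 and 0 in control libraries.

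JUP (ENSG00000173801, chromosome 17, 41754604 to 41786931, minus strand), plakoglobin, the armadillo protein shared by desmosomes and adherens junctions, had 490, 457 and 478 CPM in shLIS1 libraries, against 616, 571 and 616 CPM in control libraries. Every shLIS1 library was below every control library. The mean was 475 ± 16.4 CPM in shLIS1 and 601 ± 26.3 CPM in control libraries (SD, n = 3 each), 79.0% of the control level (log2 fold change -0.34, SE 0.05, adjusted p = 1.6e-05 by edgeR).

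The plakophilins did not move as a group. PKP3 (ENSG00000184363, chromosome 11, 392614 to 404908, plus strand), which is found in most desmosome-bearing epithelia, had 187, 167 and 165 CPM in shLIS1 libraries, against 218, 204 and 208 CPM in control libraries. The groups did not overlap, and PKP3 fell to 82.3% of its control level (log2 fold change -0.28, SE 0.06, adjusted p = 0.00038 by edgeR). PKP1 (ENSG00000081277, chromosome 1, 201283452 to 201332993, plus strand), the plakophilin of stratified epithelium, had 234, 209 and 224 CPM in shLIS1 libraries, against 235, 217 and 219 CPM in control libraries. These ranges overlapped almost fully, with a log2 fold change of -0.0045 and a 95% interval from -0.12 to 0.11 (adjusted p = 0.96 by edgeR). PKP2 (ENSG00000057294, chromosome 12, 32790745 to 32896777, minus strand), the plakophilin of heart and simple epithelia, had 66.1, 75.7 and 70.2 CPM in shLIS1 libraries, against 64.4, 69.2 and 68.8 CPM in control libraries. Its ranges overlapped too, with a log2 fold change of 0.06 and an interval from -0.07 to 0.20 (adjusted p = 0.43 by edgeR).

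PERP (ENSG00000112378, chromosome 6, 138088505 to 138107419, minus strand) had 679, 697 and 754 CPM in shLIS1 libraries, against 659, 701 and 671 CPM in control libraries. Only shLIS1 library 3 was above all control libraries. The log2 fold change was 0.07, with an interval from -0.04 to 0.18 (adjusted p = 0.29 by edgeR).

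Summed over the 4 cadherins the level was 514, 497 and 484 CPM in shLIS1 libraries, against 380, 402 and 367 CPM in control libraries. Summed over the 4 armadillo genes it was 977, 910 and 937 CPM in shLIS1 libraries, against 1133, 1061 and 1112 CPM in control libraries. The cadherin sum was thus above, and the armadillo sum below, that of every control library, with means at 1.30 and 0.854 times the control mean. Within the armadillo sum, JUP was at 475 CPM in shLIS1 and 601 CPM in control libraries, and PKP3 at 173 and 210 CPM. PKP1 and PKP2 did not pass. The sums were taken without the length and GC offset, with which the calls of DSC2, DSC3, DSG2 and PKP3 were lost. The sum over all 10 genes was 2996 to 3130 CPM in shLIS1 and 2783 to 2894 CPM in control libraries. When each gene was divided by the length of its longest transcript, the sums overlapped. They were 579 to 604 CPM per kb in shLIS1 and 585 to 600 CPM per kb in control libraries.

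Per kilobase of the longest transcript, the order of levels also differed between the groups. In the shLIS1 libraries PERP was highest at 166 ± 9.21 CPM per kb, then JUP at 136 ± 4.70, DSP at 94.9 ± 3.50, PKP3 at 61.6 ± 4.32, PKP1 at 40.9 ± 2.30, DSG2 at 35.6 ± 1.91, DSG3 at 23.2 ± 1.63, DSC3 at 17.6 ± 0.299, PKP2 at 16.4 ± 1.11 and DSC2 at 3.22 ± 0.0674 CPM per kb (SD, n = 3 libraries). Of these neighbours, DSC3 and PKP2 had overlapping ranges and all others were apart. In the control libraries JUP at 172 ± 7.53 and PERP at 158 ± 5.09 CPM per kb overlapped, as did PKP3 at 74.8 ± 2.53 and DSP at 67.7 ± 5.14, and DSG3 at 16.6 ± 0.871 and PKP2 at 15.7 ± 0.620. DSP thus stood above PKP3 in every shLIS1 library. It stood below PKP3 within each control library (73.7, 64.9 and 64.7 against 77.6, 72.7 and 74.1 CPM per kb), although the control ranges overlapped. JUP stood below PERP in every shLIS1 library and above it in control libraries 1 and 3. In control library 2 they were close, at 163.2 CPM per kb for JUP and 163.5 for PERP. The value of DSC2 rests on a transcript of 12325 bases, and its other coding transcripts have 4778 and 4826 bases, so its level per kb would be higher with a shorter one. Likewise PKP3 has 2809 bases in its longest coding transcript and 1111 in the next, and JUP has 3497 in its longest and 1029 in that of median length. DSG2 has 5831 bases in its longest coding transcript and 1081 in the next. The places of PKP3, JUP and DSG2 among the others, including PKP3 against DSP and JUP against PERP, therefore depend on the transcript taken.

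**Figure D2:**
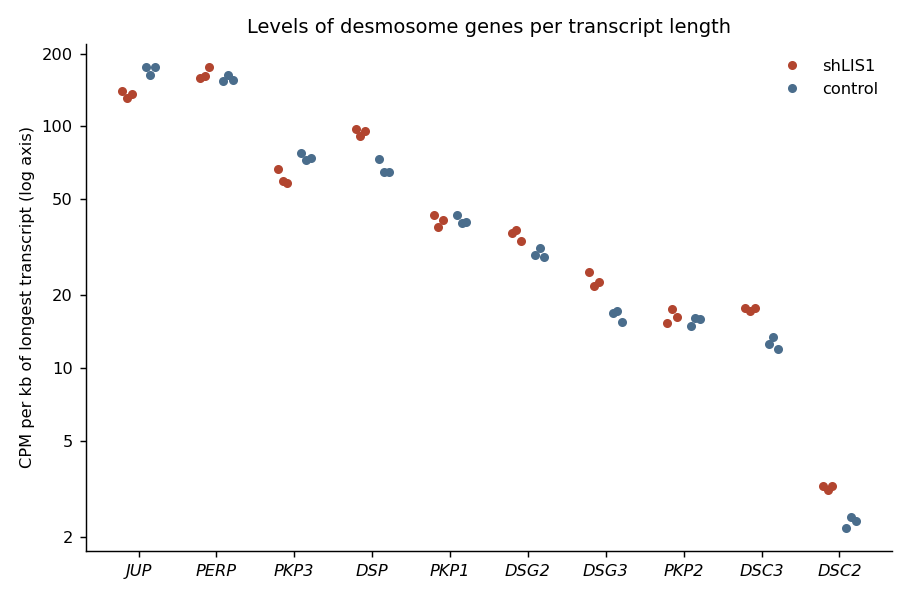
Level per kilobase of the longest GENCODE 29 transcript (vertical log axis) of the 10 desmosome genes, ordered by their control mean; each point is 1 library, shLIS1 left of control. JUP and PERP lead in both groups, DSC2 is lowest at 3.22 CPM per kb in shLIS1 and 2.31 in control, and DSP passes PKP3 in shLIS1.

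Ratios of CPM between genes were taken for 6 pairs. A fixed transcript length cancels in them when groups are compared, but a trend of fold changes with length or GC content does not. JUP over DSP was 0.510, 0.512 and 0.511 in shLIS1 libraries, against 0.854, 0.898 and 0.973 in control libraries. The shLIS1 values lay within a narrow range far below all control values, a difference of -0.83 in the log2 ratio. DSG3 over DSG2 was 0.657, 0.559 and 0.643 in shLIS1 libraries, against 0.544, 0.518 and 0.510 in control libraries. PKP1 over PKP3 was 1.25, 1.25 and 1.36 in shLIS1 libraries, against 1.08, 1.06 and 1.05 in control libraries, and PKP2 over PKP3 was 0.354 to 0.452 in shLIS1 and 0.295 to 0.339 in control libraries. The groups did not overlap for these 4 ratios, and each had an exact permutation p of 0.1 (two-sided), the smallest that 3 against 3 allows (0.15 adjusted over the 6 pairs). DSC3 over DSC2 was 3.09 to 3.11 in shLIS1 and 2.93 to 3.27 in control libraries (exact permutation p = 0.9), and PKP1 over PKP2 overlapped as well (exact permutation p = 0.6).

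**Figure D3:**
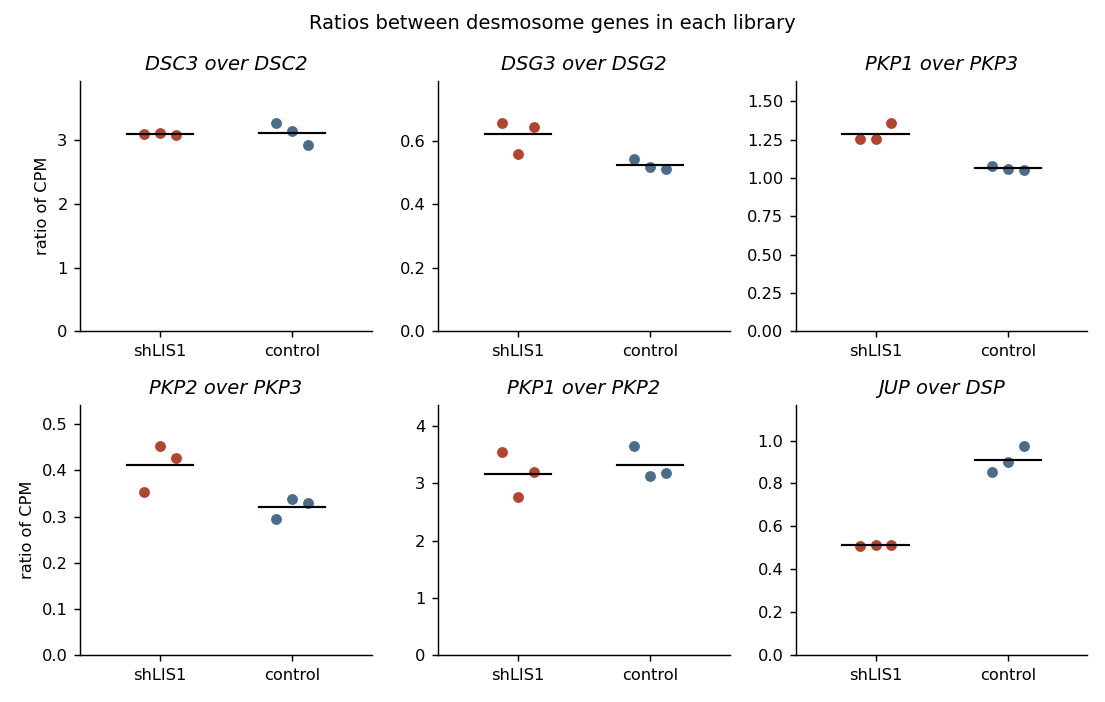
Ratio of CPM (vertical axes from 0) between 6 pairs of desmosome genes in 3 shLIS1 and 3 control libraries; points are libraries and lines the means. JUP over DSP is close to 0.51 in all shLIS1 libraries and at least 0.854 in all control libraries, while DSC3 over DSC2 overlaps.

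The genes that rose and those that fell differ in transcript composition, and fold changes across all genes in these libraries followed it. The cadherins and DSP have transcripts of 5525 to 12325 bases with a GC content from 38.9% for DSC2 to 47.9% for DSP. JUP has 3497 bases with 61.5% GC and PKP3 has 2809 bases with 66.7%, which is above 98.4% of the genes tested. The median log2 fold change of all genes was 0.28 in the quintile with the lowest GC content, which holds DSC2, DSC3 and PERP, and 0.14 in the next, with DSG2 and DSG3. It was -0.01 in the middle quintile, with DSP and PKP2, -0.15 in that of PKP1, and -0.28 in the highest, with JUP and PKP3. In the lowest quintile 51.2% of genes were called higher, and in the highest 51.4% were called lower.

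**Figure D4:**
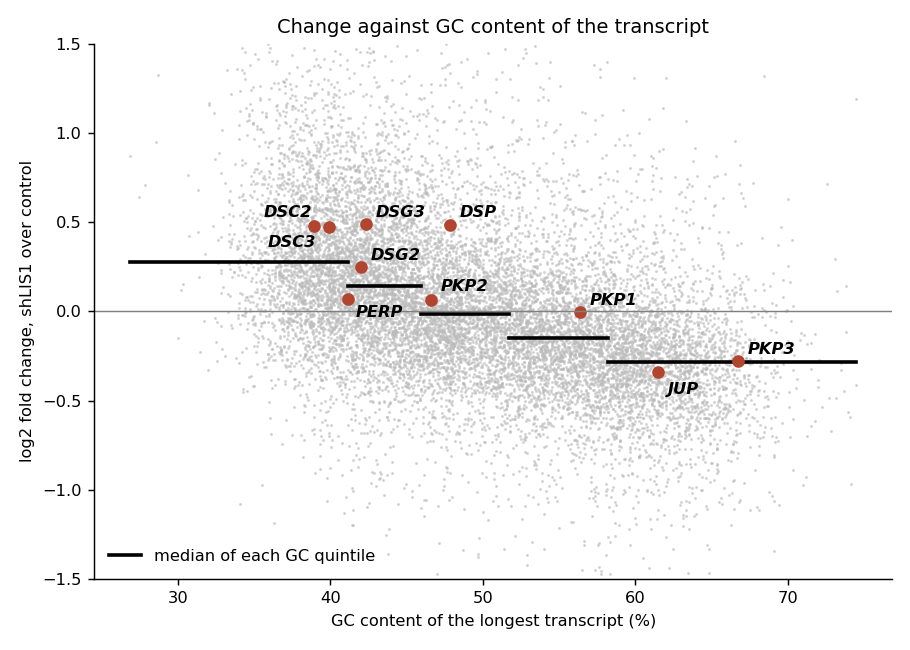
Log2 fold change, shLIS1 over control, of 14317 genes (grey points) against the GC content of the longest transcript, with 174 genes beyond 1.5 in either direction not drawn; red points are the desmosome genes and black lines the medians of the GC quintiles. DSP lies at 0.49 where the quintile median is -0.01, PERP at 0.07 where it is 0.28, and PKP3 at -0.28 on the line.

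The fit was repeated with an offset that removes a smooth trend over transcript length and GC content from each library. Of the 10 genes, 2 were then higher, against 17.7% of 14491 genes, and 2 lower, against 24.0% (4 in either direction, against 41.8%). DSP kept most of its change, at 0.34 in log2 (SE 0.04, adjusted p = 1e-06 by edgeR), and DSG3 kept 0.22 (SE 0.05, adjusted p = 0.0016). The calls of the other cadherins were lost, with DSC3 at 0.09 (interval from -0.01 to 0.18), DSC2 at -0.0038 (-0.14 to 0.14) and DSG2 at -0.04 (-0.14 to 0.06). JUP stayed lower at -0.12 (adjusted p = 0.04 by edgeR), a call lost when the offset was joined with a replicate block (adjusted p = 0.078 by edgeR). PKP3 was at 0.04 (interval from -0.07 to 0.14), and PKP1 at 0.11 (adjusted p = 0.062 by edgeR). PERP, which did not pass without the offset, was lower at -0.19 (SE 0.05, adjusted p = 0.0019 by edgeR). With the offset, the difference between the changes of JUP and DSP was -0.46 and that between DSG3 and DSG2 was 0.26, while PKP1 and PKP3 differed by 0.08 and the difference between PKP2 and PKP3 changed sign, at -0.08 with the offset and 0.35 without it. With length and GC content from the coding transcript of median length, an alternative added after the data were seen, DSP at 0.28 and DSG3 at 0.16 remained higher, PERP at -0.26 was lower, and the call of JUP was lost at -0.01 (adjusted p = 0.86 by edgeR). For DSP, DSG3 and PERP that transcript is also the longest (9796, 5525 and 4290 bases), so only the trend fitted over all genes changed. JUP went from 3497 to 1029 bases. A shorter DSP transcript of 7812 bases was not tried. The part of the length and GC trend in the calls of the cadherins, JUP and PKP3 was not tested further.

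**Figure D5:**
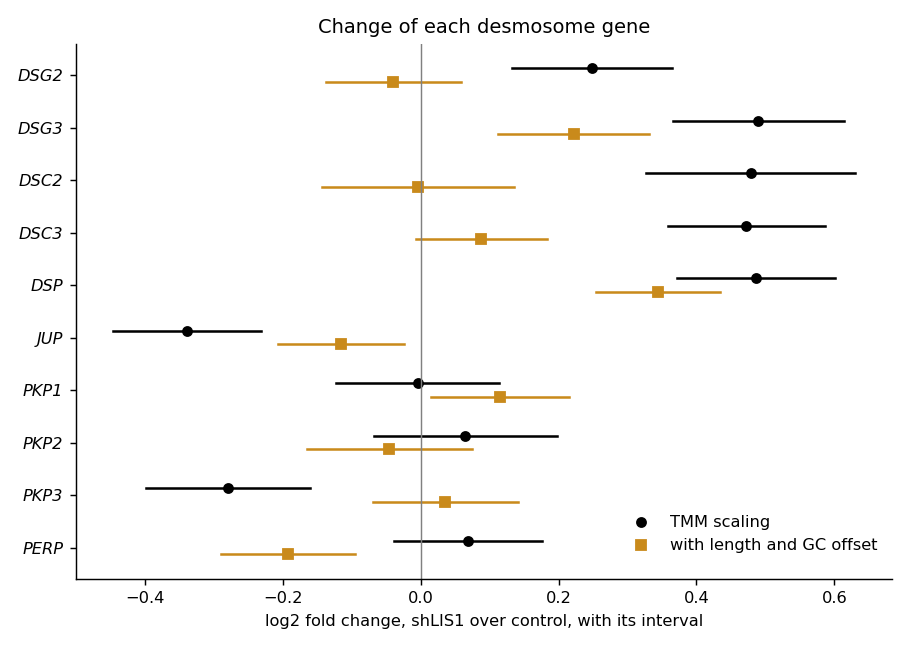
Log2 fold change, shLIS1 over control, of each desmosome gene with its 95% interval, with TMM scaling (black circles) and with the offset over transcript length and GC content (orange squares). The intervals of DSP and DSG3 lie above 0 in both fits, and those of DSC2 and DSG2 span 0 with the offset.

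Most of the plakins and other keratin linkers rose. Of 7 plakins and keratin linkers, 5 were higher (23.5% over all genes) and 1 lower (24.9%). Their median log2 fold change was 0.49, against -0.01 over all genes tested. The offset left 6 higher (17.7% over all genes) and 0 lower (24.0%). DSP belongs to this list. PNN, pinin, a protein of the nucleus that is also described at desmosomes, had 262 ± 6.93 CPM in shLIS1 and 84.3 ± 11.0 CPM in control libraries (SD, n = 3 each; log2 fold change 1.64, adjusted p = 1.3e-10 by edgeR). DST, a plakin of hemidesmosomes, had 401 ± 1.19 CPM in shLIS1 and 136 ± 19.7 CPM in control libraries (log2 fold change 1.56). DST is also counted among the hemidesmosome genes below. PPL, periplakin, was lower at -0.18, a call lost with the offset (-0.0066) and without shLIS1 library 2 or 3 (adjusted p = 0.073 by edgeR and 0.051).

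Of 4 cytoskeletal partners of LIS1 at desmosomes, 3 were higher and 1 lower, with and without the offset. Over all genes 23.5% were higher and 24.9% lower without the offset, and 17.7% and 24.0% with it. NIN, ninein, had 143 ± 4.05 CPM in shLIS1 and 77.5 ± 4.94 CPM in control libraries (SD, n = 3 each; log2 fold change 0.89, adjusted p = 2.1e-10 by edgeR). CLIP1, which binds microtubule plus ends, rose with 0.64 and NDEL1 with 0.27, while NDE1, its paralogue, fell with -0.33. The list also holds PAFAH1B1 itself, the target of the hairpin, which is not counted here.

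Keratins form the filaments that desmosomes hold. Of 12 keratins of stratified epithelium, 7 were higher (23.5% over all genes) and 4 lower (24.9%), with a median of 0.22. Under the offset 7 were higher (17.7% over all genes) and 2 lower (24.0%). KRT15, a basal keratin, was lower with a log2 fold change of -0.79, KRT14 with -0.50 and KRT5, its partner, with -0.26, and the call of KRT5 was lost with the offset (-0.07). KRT6A, a keratin of wounded and oral epithelium, had 2483 ± 152 CPM in shLIS1 and 2065 ± 50.9 CPM in control libraries (log2 fold change 0.27). KRT1 rose with 1.42 at a low level, with 2.80 ± 0.468 CPM in shLIS1 and 1.04 ± 0.394 CPM in control libraries, and KRT6C with 0.96. KRT6A and KRT6C are near-identical, so their counts are uncertain. Of 4 keratins of simple epithelium, 0 were higher (23.5% over all genes) and 3 lower (24.9%). KRT7 fell with -0.86, KRT8 with -0.67 and KRT18 with -0.29, the last with a call lost with the offset (-0.04). KRT8 and KRT18 have many processed pseudogenes, which leaves their counts uncertain.

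Adherens junctions are the neighbours of desmosomes along the membrane. Of 16 of their genes, 3 were higher (23.5% over all genes), 4 lower (24.9% over all genes) and 9 did not pass, which is near the shares of all genes. The median was 0.01, and with the offset 4 were higher (17.7% over all genes) and 6 lower (24.0%). AFDN, afadin, rose by 0.45 in log2, and CDH1, E-cadherin, with 0.16, a call lost with the offset (0.09) and without shLIS1 library 2 or control library 3 (adjusted p = 0.051 by edgeR and 0.052). Without control library 3 the list had 1 gene higher. AJUBA fell with -0.42, NECTIN2 with -0.41 and CDH3, P-cadherin, with -0.20. The calls of NECTIN2 and CDH3 held with the offset (-0.15 and -0.13) and were lost with that from the median transcript (edgeR adjusted p = 0.13 and 0.11). Among the armadillo relatives of the plakophilins, PKP4 rose with 0.16 and CTNND1 with 0.42, and ARVCF fell with -0.29. All of these calls were lost on leaving out some of the libraries: PKP4 without shLIS1 library 2 or 3 or control library 3 (edgeR adjusted p from 0.051 to 0.068), CTNND1 without shLIS1 library 3 or control library 1 or 3 (0.062 to 0.09), and ARVCF without shLIS1 library 1 or 2 or control library 1 (0.079 to 0.15). None of the 3 passed with the offset, while CTNND1 passed when the offset was joined with the replicate block. CTNND1 shares exons with the read-through gene TMX2-CTNND1, so its counts are uncertain, and CTNND2 was not analysed here.

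Hemidesmosome genes, which tie the same keratins to the basement membrane, were mostly higher. Of 9, 6 were higher (23.5% over all genes) and 1 lower (24.9%), with a median of 0.27. After the offset 8 were higher (17.7% over all genes) and 0 lower (24.0%). DST, counted with the plakins too, is among the 6. LAMA3, a laminin chain, was higher in shLIS1 by 0.51 in log2. CD151, a tetraspanin, was lower with a log2 difference of -0.41, a call lost with the offset (-0.04).

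Of 14 transcription factors linked to desmosomal genes, 7 were higher (23.5% over all genes) and 3 lower (24.9%), with a median of 0.28. The fit with the offset had 8 higher (17.7% over all genes) and 1 lower (24.0%). SNAI2 (Slug), a repressor of cadherin genes, had 85.6 ± 4.68 CPM in shLIS1 and 55.9 ± 1.21 CPM in control libraries (SD, n = 3 each; log2 fold change 0.62, adjusted p = 6.8e-08 by edgeR). GRHL1, an activator of Dsg1 genes in mouse epidermis, rose with 0.53 and KLF5 with 0.32. TP63, the p63 gene, had 560 ± 12.8 CPM in shLIS1 and 616 ± 23.6 CPM in control libraries (log2 fold change -0.14, adjusted p = 0.027 by edgeR). The TP63 call was lost when all low counts were kept (adjusted p = 0.15) and without shLIS1 library 1 or 2 or control library 2 or 3 (0.061 to 0.091), and its log2 fold change was -0.39 with the offset on the longest transcript and -0.09 with that on the median transcript (adjusted p = 0.13 by edgeR). OVOL2 fell with -0.62, at 3.84 ± 0.439 CPM in shLIS1 and 5.90 ± 0.478 CPM in control libraries, TWIST1 fell with -0.60, and both calls were lost with the offset.

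Of 13 sheddases, kinases and traffic factors that act on desmosomal proteins, 7 were higher (23.5% over all genes) and 4 lower (24.9%). Their median was 0.16, and with the offset 4 were higher (17.7% over all genes) and 4 lower (24.0%). EGFR, whose activity loosens desmosomes, had 1300 ± 20.7 CPM in shLIS1 and 954 ± 65.1 CPM in control libraries (SD, n = 3 each; log2 fold change 0.45, adjusted p = 4.3e-07 by edgeR). KIF5B, a kinesin heavy chain, rose with 0.72, and ADAM10, a sheddase of cadherins, with 0.53, a call lost with the offset (0.04). ADAM15, another sheddase, fell with -0.63, and the raft proteins FLOT1 and FLOT2 fell with -0.60 and -0.38.

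The genes nearest to DSP in pattern over the 6 libraries were TUT4, PALB2, DOCK9, SSH1 and ZCCHC2, out of 9296 genes that averaged 10 CPM or more. Their root mean square difference from DSP, in log2 CPM centred on each gene's mean, was 0.020 for TUT4, 0.029 for PALB2, 0.032 for DOCK9 and 0.035 for SSH1 and ZCCHC2. EGFR, also at 0.035, came close behind. These differences were taken on CPM without the offset. The call of TUT4 was lost with the offset, at 0.13 (adjusted p = 0.18 by edgeR). PALB2 at 0.28, DOCK9 at 0.31, SSH1 at 0.33 and ZCCHC2 at 0.45 stayed higher with it. ZCCHC2 lost its call with the offset from the median transcript (adjusted p = 0.073 by edgeR).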

How the data were processed

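Polyadenylated RNA was sequenced as strand-marked libraries, per the labels' protocols. The deposited values are raw read counts per gene, not normalized by the authors, on hg38 per the submitters' processing notes. The aligner, counter, annotation release and strand setting were not given in the sources used here, so antisense and overlapping genes are uncertain. Counts were tested with edgeR 4.0.16 (R 4.3.3): filterByExpr with a minimum count of 10 and total of 15, TMM scaling, and the robust quasi-likelihood test on group alone, with Benjamini-Hochberg adjustment over all 14964 genes tested and a threshold of 0.05. Standard errors were derived from the F statistic.

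The offset was a smooth (mgcv 1.9.3, basis size 6 per axis) of each library's deviation from the mean library over log2 length and GC content of the longest coding transcript in GENCODE release 29, known for 96.8% of genes tested. Alternatives were RLE or upper quartile scaling, no filter or a minimum of 1 CPM in 3 libraries, DESeq2 1.42.0, limma-voom (3.58.1), non-robust estimation, a replicate block, and each library left out. On simulated data the test recovered 44% of genes changed 1.25-fold, 78% at 1.5-fold, 86% at 2-fold and 98% at 4-fold. A simulation with no changed gene used the length and GC trend of these libraries. It had 29.0% of genes called without the offset and 0% with it, which takes the same smooth. Replicate pairs differed by more than sampling noise (chi-square per gene 2.66 to 11.2 within groups). Named genes were the 10 desmosome genes, PAFAH1B1, all plakophilin relatives, up to 3 rises and 3 falls with the smallest p per list, and the 5 genes nearest to DSP. A gene that the rule takes from these lists is not reported here. Members and lists were chosen with earlier results of these data known.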

Additional observations from a re-analysis of the deposited data

How the results depend on the processing

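Without the offset, the same 7 desmosome genes were called in the same direction under all 14 alternatives of scaling, filter, tool, block and left-out library, and PKP1, PKP2 and PERP under none. Leaving out 1 library gave log2 fold changes of 0.46 to 0.54 for DSP, 0.22 to 0.29 for DSG2 and -0.34 to -0.24 for PKP3. The length and GC offset left 2 genes higher, also with the replicate block and with the median transcript. It left 1 lower, PERP, when joined with the replicate block and 1 lower, again PERP, with the median transcript, and the call of JUP was lost in both. It turned the sign of DSC2 (-0.0038, also with the replicate block), DSG2 (-0.040, -0.040 with the block, -0.098 with the median transcript), PKP2 (-0.045, -0.044 and -0.10), PKP3 (0.035, 0.034 and 0.034), PERP (-0.19, -0.19 and -0.26) and PKP1 (0.11, 0.11 and 0.069). PKP1 was also at 0.0068 with RLE scaling, 0.0080 with no filter, 0.0017 with at least 1 CPM in 3 libraries and 0.0022 with DESeq2, and between -0.043 and 0.038 on leaving out 1 library. On leaving out 1 library the log2 ratio difference ran from -0.051 to 0.029 for DSC3 over DSC2 and from -0.16 to 0.023 for PKP1 over PKP2. The causes were not tested. The replicate numbers share only a name: deviations of same-numbered libraries correlated at -0.04, 0.03 and -0.04, and the replicate block gave the same 5 higher and 2 lower desmosome genes. Depth did not limit the 10 genes, which had at least 419 counts per library, but it leaves DSC1, DSG1 and DSG4 undecided.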
